A study of Mus musculus with 24 samples.

Results

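Of the 2738 genomic intervals (bins) of 1 Mb into which the deposited counts were divided, the 2 described here hold the mouse ribosomal RNA copy Rn18s-rs5 and the gene Lars2. They are chromosome 17, 39000001 to 40000000, and chromosome 9, 123000001 to 124000000, in build mm10. Both were selected on values of these same data, a high γH2AX count against input DNA, so the γH2AX excess over input and over H2AX is given below as a description with no test. Tests of γH2AX between groups may use the same values, and their p-values make no allowance for the selection. The measurements are chromatin immunoprecipitation with sequencing (ChIP-seq) read counts for the histone variant H2AX, for its phosphorylated form γH2AX, and for input DNA, which is sheared chromatin taken without an antibody.

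All 24 samples were female C57BL6/CAST hybrid cells that the labels call TTF, and each label gives 5 Gy of X-rays and 30 minutes of recovery, so no unirradiated group is labelled. They form 12 groups of 2. γH2AX, H2AX and input were taken from wild-type (WT) and SIRT7-KO cells, and γH2AX and H2AX from SIRT7-KO clones c22 and c9, from the same clones with SIRT7-WT added, and from SIRT7-HY clones c5 and c7, an abbreviation the labels leave unexplained. Each clone group thus rests on 2 clones. The labels do not tell whether the 2 replicates of WT or of KO grew apart, so p-values for them speak of the spread of these samples alone, which may be technical. The cell type could not be checked against markers, since the assay does not measure expression.

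H2AX is built into nucleosomes throughout the genome, and kinases of the DNA damage response phosphorylate it over wide domains around DNA breaks. Ribosomal RNA genes lie in long tandem arrays that form the nucleolus, are transcribed by RNA polymerase I, and are nearly absent from the assembled mouse chromosomes. Reads from the many copies of an array align to the few partial copies that the assembly does hold, so the count in such a bin stands for many copies at other places. SIRT7 is a chromatin deacylase known for binding ribosomal DNA and for acting with RNA polymerase I. Lars2 encodes the mitochondrial leucyl-tRNA synthetase, which charges leucine tRNAs for protein synthesis in mitochondria.

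The annotation (RefSeq genes of GRCm38.p6, the same assembly as mm10) places Rn18s-rs5 on chromosome 17 at 39846354 to 39848202. It is listed as a pseudogene of 1849 bases, which cover 0.185% of the bin. The long non-coding RNA gene AY036118 begins within Rn18s-rs5 and runs from 39848112 to 39898385. The 6 protein-coding genes of that bin, Esp24, Esp23, Esp18, Esp16, Esp15 and Esp38, encode exocrine gland-secreted peptides, a family of pheromone proteins. Lars2 lies at 123366927 to 123462675 of chromosome 9 and takes 9.57% of its bin. That bin holds 20 protein-coding genes, among them Exosc7, a subunit of the RNA exosome, Limd1, a LIM domain protein, and the chemokine receptor genes Ccr9, Cxcr6, Xcr1 and Ccr1. A count per Mb does not show which of these sequences the reads came from.

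Libraries held 170013624 to 268180310 reads in the first of the 2 deposited tables (WT and KO cells), 70349148 to 155364952 in the clones and 88317834 to 248337642 in the WT columns of the second table, which makes counting error small. The columns of the first table end in NT or Xray although every label gives X-rays. Libraries are named below after that ending (NT-named, Xray-named), and both count as replicates of their group. All 2738 bins of WT replicate 2 in the second table equal those of the NT-named WT library, for each of the 3 assays, while WT replicate 1 was another library. As a check of the labels, the bin with Sirt7 held 215 and 215 CPM (reads in the bin as a share of the library, scaled to 1e6 reads) in KO input against 421 and 413 in WT input. In the γH2AX libraries of KO clones with SIRT7-WT it held 2063 and 9640, against 574 and 413 in KO clones, 723 and 610 in HY clones and 638 and 519 in WT. In H2AX the KO clones held 724 and 882, above the 678 and 535 of WT, so the clones did not show the lower value that KO cells of the first table had. A bin of this width cannot resolve the gene itself.

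The bin with Rn18s-rs5 stood far above its surroundings in every γH2AX library. In γH2AX of the first table it held 10049 CPM in the NT-named and 5009 in the Xray-named WT library, and 16845 and 7299 in the KO libraries of those names. These are 1.00% and 0.501% of all reads in WT, and 1.68% and 0.730% in KO. WT H2AX stood at 515 and 507 CPM and KO H2AX at 439 and 437. For input the WT values were 592 and 600 CPM, those of KO 567 and 577. The γH2AX libraries did not overlap with the H2AX or input libraries, and H2AX was below input in each of the 4 pairs of like name.

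**Figure D1:**
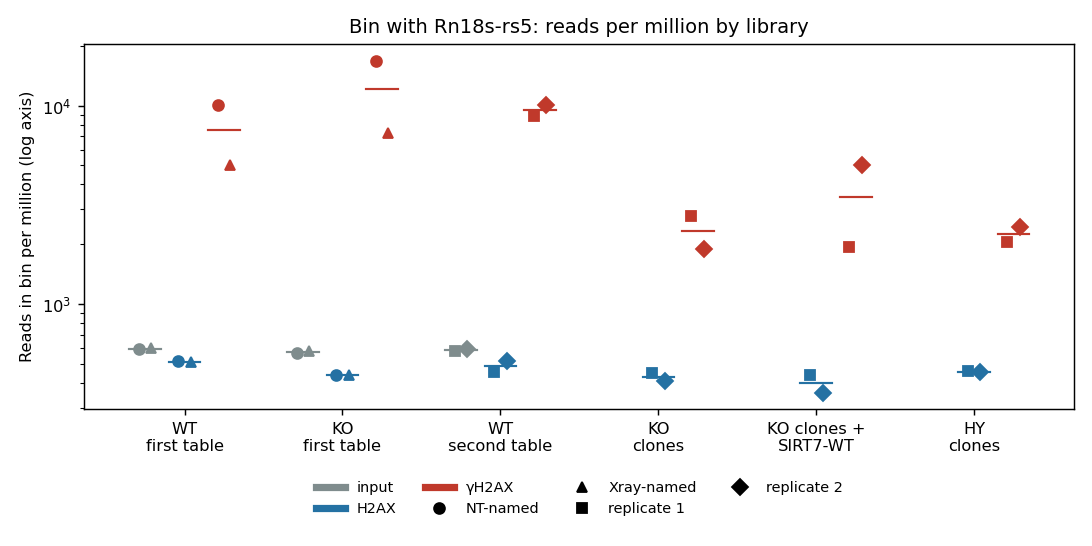
CPM in the bin with Rn18s-rs5 (vertical log axis) for every library used, by group on the horizontal axis. Colours mark input, H2AX and γH2AX, symbols mark the library and short lines are means of 2. The γH2AX libraries lie between 1886 and 16845 CPM, and every H2AX or input library lies at 600.03 CPM or below.

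Set against the median bin of chromosome 17, the γH2AX count was 22.7 and 11.03 times as high in WT and 44.6 and 18.8 times as high in KO, NT-named library first. The same ratio was 1.18 and 1.12 in WT H2AX and 1.16 and 1.14 in KO H2AX. In input it was 1.37 and 1.38 in WT and 1.503 and 1.53 in KO. The bin was therefore somewhat above its chromosome in input DNA, and many times above it in γH2AX alone. By count it ranked between 2 and 5 from the highest of 2582 bins in the γH2AX libraries of the first table.

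The ratio of γH2AX to input CPM was 16.98 (NT-named) and 8.35 (Xray-named) in WT and 29.7 and 12.7 in KO, and it was the highest of all 2582 bins in each of these 4 pairs. The median bin had a ratio between 0.980 and 0.993. In averages over both names, the next bin, on chromosome 11 from 109000001, which holds Wipi1 and Prkar1a, reached 2.10 in WT and 2.95 in KO. The bin with Lars2 came eleventh in WT at 1.52 and ninth in KO at 1.60, and the bin just below it in WT, on chromosome 16 from 17000001, stood at 1.45. By library pair it ranked 10 in WT and 8 in KO for the NT-named pairs, and 36 and 19 for the Xray-named ones. The bin with Lars2 thus lay within a group of bins of similar ratio, and the Rn18s-rs5 bin stood alone.

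The excess did not reach the bins beside it. The 4 neighbours of the Rn18s-rs5 bin, 2 on each side, held 303 to 393 CPM in γH2AX of the first table, 301 to 420 in H2AX and 365.7 to 450 in input. Within 6 Mb on either side, the γH2AX to input ratio of the 12 other bins stayed between 0.793 and 1.30. Around the Lars2 bin, near the end of chromosome 9, the 7 other bins had ratios between 0.982 and 1.31. In the Xray-named pairs the highest of them, 1.305 in WT and 1.310 in KO, came near the 1.38 of the Lars2 bin.

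**Figure D2:**
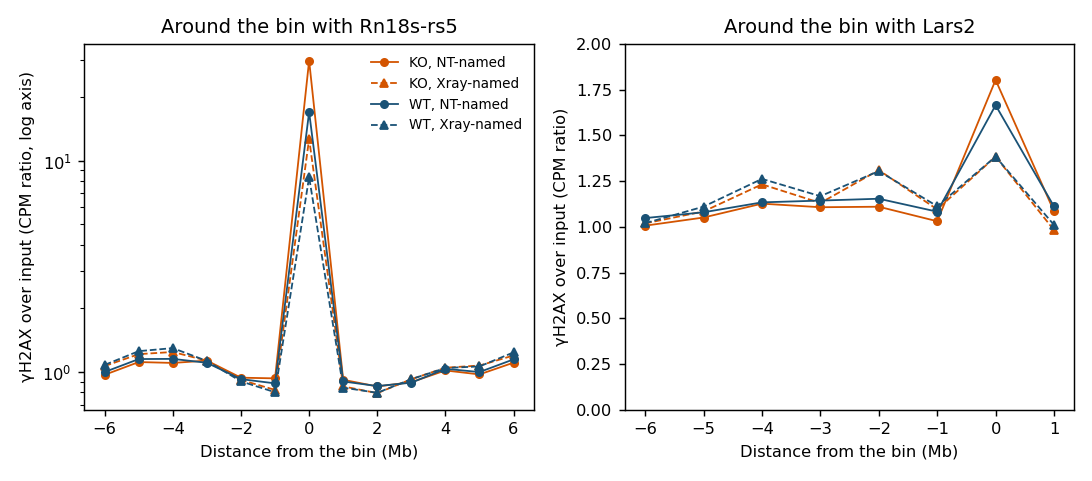
Ratio of γH2AX to input CPM (vertical axis, log scale on the left only) against distance from the bin in Mb, for the 4 library pairs of the first table. The Rn18s-rs5 bin peaks at 8.35 to 29.7 while its 12 neighbours stay between 0.793 and 1.30. The Lars2 bin stands at 1.67 (WT) and 1.80 (KO) in the NT-named pairs and at 1.38 in both Xray-named pairs. Its neighbours lie between 0.982 and 1.31.

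Among bins chosen for comparison in the first table, 2 had high counts and no γH2AX value above the highest input value. What this means for the member bins was not tested. A pair of bins known for pile-ups of satellite-like repeats, chromosome 2 from 98000001 and chromosome 9 from 3000001, were examined beside the members. The former held 51127 to 62291 CPM in γH2AX, 57501 to 63712 in H2AX and 61729 to 64040 in input. The latter held 12193 to 15170, 14451 to 16227 and 14304 to 15243. Within WT alone the highest γH2AX value was above the highest input value in both (62291 against 62132, and 15170 against 14869 CPM). Within KO it was below in both (59336 against 64040, and 14407.5 against 15243 CPM). Another bin, chromosome 1 from 24000001, was chosen as holding copies of mitochondrial sequence. It held 283 to 298 CPM in γH2AX and 262 to 279 in H2AX, both below the 509.95 to 579.8 of input.

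The Lars2 bin had a smaller excess. In γH2AX it held 542 CPM in the NT-named and 449 in the Xray-named WT library, and 746 and 561 in KO. WT H2AX stood at 334 and 338 CPM and KO H2AX at 427 and 420, while input was at 326 and 325 for WT and 413 and 405 for KO. All 4 γH2AX libraries were above the H2AX and input libraries of their own genotype. H2AX was slightly above input in each pair of like name, and for both assays the KO libraries were above the WT libraries. Between KO and WT, 63.3% of all bins passed the test given below in H2AX and 57.5% in input. How many bins had no overlap between KO and WT libraries was not counted. Over the median bin of chromosome 9, γH2AX was 1.70 and 1.36 in WT and 2.22 and 1.65 in KO, while input was 1.04 and 1.03 in WT and 1.196 and 1.16 in KO.

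**Figure D3:**
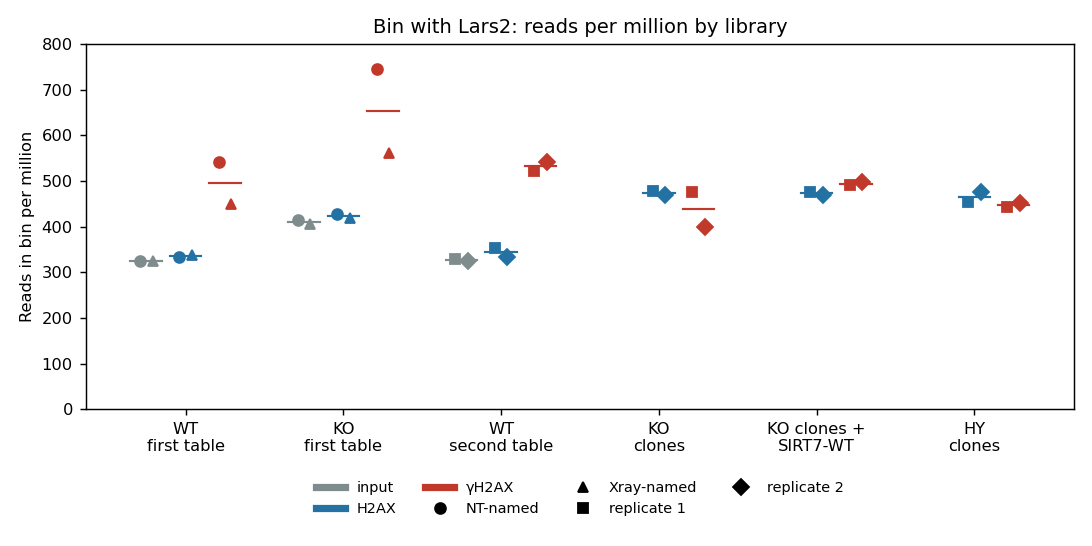
CPM in the bin with Lars2 (vertical axis from 0) for every library used, by group on the horizontal axis, with colours for the assay, symbols for the library and short lines for means of 2. In the first table γH2AX lies above input within each genotype, whereas in the clones γH2AX (399.9 to 497 CPM) overlaps H2AX (453 to 479 CPM).

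The 2 γH2AX libraries of a group differed widely in these bins. The NT-named library had 2.01 times the CPM of the Xray-named one in the Rn18s-rs5 bin in WT and 2.31 times in KO, the widest difference in either direction of 2582 bins in both. In the Lars2 bin the ratios were 1.21 in WT and 1.33 in KO, ranks 18 and 7 in either direction, where the median bin had 0.987 and 0.991. The same ratio in H2AX was 1.02 and 1.00 for Rn18s-rs5 and 0.989 and 1.02 for Lars2, and in input all 4 values fell between 0.983 and 1.02. The divergence between the names was therefore seen in γH2AX and not in the other assays. Whether the names stand for a treatment is not given in the labels.

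In the comparison of γH2AX between KO and WT, 60.1% of all bins passed the test (edgeR's quasi-likelihood test on the counts, Benjamini-Hochberg adjusted p under 0.05), so a call for a single bin is common. The Rn18s-rs5 bin did not pass, with a log2 change of 0.70 (SE 0.368, adjusted p = 0.126), rank 3 from the highest of 2582. Within the NT-named libraries KO was 1.68 times WT and within the Xray-named ones 1.46 times, so KO was higher under both names, but the values of the 2 genotypes overlapped. A fit with the library name as a term within each assay, chosen after seeing the data, gave 0.67 (SE 0.0485, adjusted p = 0.000248), which passed. In that fit 2141 of the 2582 bins passed, so a call there is more common still. No label ties the libraries of a name together. Without such a term the value moved with single libraries. It was -0.037 (adjusted p = 0.924) when the NT-named KO library was left out and 0.28 (adjusted p = 0.524) when the Xray-named WT library was. It was 1.1999 (adjusted p = 0.0041) when the Xray-named KO library was left out and 1.31 (adjusted p = 0.0114) when the NT-named WT library was.

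The Lars2 bin passed in γH2AX, as 60.1% of all bins did, with a log2 change of 0.42 (SE 0.123, adjusted p = 0.0134) and both KO libraries above both WT libraries. It no longer passed without the NT-named KO library (0.19, adjusted p = 0.0826), without the Xray-named WT library (0.28, adjusted p = 0.0849) or in a fit of the compared groups only (0.44, adjusted p = 0.0834).

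The Lars2 bin was also higher in KO in the other assays. H2AX rose by 0.35 (SE 0.123, adjusted p = 0.0294), in a comparison where 63.3% of bins passed, and input rose by 0.38 (SE 0.123, adjusted p = 0.0237), where 57.5% passed. Both calls were lost whenever any 1 of the compared libraries was left out (adjusted p 0.081 to 0.108 for H2AX and 0.0722 to 0.0981 for input), and both strengthened when the spread was estimated from the compared groups only (adjusted p = 1.28e-05 and 2.96e-18). In those fits of the compared groups only, 1718 of 2582 bins passed in H2AX and 2058 in input. The neighbours moved with the Lars2 bin. In input the bin from 121000001 rose by 0.37 (SE 0.0631), that from 122000001 by 0.30 (SE 0.0281) and the shorter last bin of the chromosome by 0.27 (SE 0.0531), each past the test, and the same 3 bins also rose in H2AX and in γH2AX.

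Around Rn18s-rs5 the neighbours went the other way. In γH2AX the 4 neighbours had log2 changes of -0.13 to -0.17 between KO and WT, of which 3 passed the test, and in H2AX and input all 4 were lower and passed. The Rn18s-rs5 bin itself differed by -0.20 in H2AX (SE 0.366, adjusted p = 0.65) and by -0.016 in input (SE 0.366, adjusted p = 0.976). These SEs are wide because all 12 libraries share an estimate of spread for each bin, which takes in the γH2AX libraries. The H2AX value passed in a fit of the compared groups only (-0.18, adjusted p = 0.000163), as 1718 of 2582 bins did.

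Relative to H2AX, the KO against WT change of γH2AX was 0.91 in the Rn18s-rs5 bin (SE 0.519, adjusted p = 0.997) and 0.069 in the Lars2 bin (SE 0.173, adjusted p = 0.997), and 0.155% of bins passed. Relative to input it was 0.72 (SE 0.518, adjusted p = 0.937) and 0.045 (SE 0.173, adjusted p = 0.959), and 0.0387% passed. A fit with the library name as a term within each assay was chosen after seeing the data. It gave Rn18s-rs5 values of 0.87 relative to H2AX (adjusted p = 0.0561) and 0.68 relative to input (adjusted p = 0.0263). In that fit 2 and 346 of 2582 bins passed. The bin was selected on γH2AX against input in these same data, and neither p-value makes allowance for that. Without the name term, the value relative to H2AX was 0.17 without the NT-named KO γH2AX library, 0.46 without the Xray-named WT one and 1.51 without the NT-named WT one. For Lars2 the change of γH2AX was thus nearly that of input DNA. For Rn18s-rs5 the estimate was the second highest of 2582 bins in both contrasts, and did not pass without that term. These contrasts share the γH2AX libraries with the direct comparison.

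H2AX was compared with input within each genotype. In WT the Rn18s-rs5 bin differed by -0.21 (SE 0.366, adjusted p = 0.648) and the Lars2 bin by 0.063 (SE 0.123, adjusted p = 0.677), in a comparison where 56.4% of bins passed. In KO the values were -0.39 (SE 0.367, adjusted p = 0.382) and 0.039 (SE 0.123, adjusted p = 0.803), where 49.6% passed. With only the compared groups in the fit, the Rn18s-rs5 bin passed in both genotypes (-0.21, adjusted p = 9.21e-06 in WT, and -0.37, adjusted p = 7.43e-96 in KO). In those fits 1965 of 2582 bins passed in WT and 2071 in KO, so most bins did. Here as above, a fit of the compared groups only rests on 2 against 2 libraries, whose spread may be technical. Its small p-values do not measure a spread between cultures. H2AX over input in that bin ranked 2389 and 2422 from the highest of 2582 in the 2 WT pairs and 2558 and 2564 in the 2 KO pairs, among the lowest in KO.

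Reads assigned to a parental genome could be examined in WT replicates 1 and 2 of the second table. Going by the column names, genome1 and genome2 hold reads assigned to either parent and unassigned holds reads of the bin assigned to neither. In the γH2AX libraries 99.1% (95% Wilson interval 99.1206 to 99.1537) and 99.0% (99.0023 to 99.0268) of the reads of the Rn18s-rs5 bin were unassigned. In input the share was 84.7% and 81.3%, and in H2AX 80.1% and 79.3%. The median bin of chromosome 17 had 39.4% and 33.8% of its input reads unassigned and about as many in γH2AX (35.8% and 36.1%). These intervals cover counting error only, since reads of amplified fragments are not independent molecules.

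The excess of γH2AX was found in the unassigned reads of the Rn18s-rs5 bin and not in the parental ones. Its unassigned γH2AX reads were 61.7 and 68.4 times the chromosome median for that class, against 3.08 and 3.43 times in input and 2.75 and 2.90 times in H2AX. Its genome1 reads were 0.301 and 0.407 of the median in γH2AX, 0.332 and 0.430 in H2AX and 0.389 and 0.439 in input. Its genome2 reads were 0.278 and 0.375 in γH2AX, 0.299 and 0.375 in H2AX and 0.334 and 0.388 in input. In CPM the assigned reads came to 76.4 and 99.0 in γH2AX and 88.8 and 110.3 in input, and the unassigned reads to 8775 and 9949 in γH2AX and 491 and 481 in input. Of the assigned γH2AX reads 57.0% and 56.9% went to genome1, close to the chromosome's median of 57.0% and 57.1%.

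In the Lars2 bin the γH2AX excess was smaller and lay mainly in the unassigned reads, with a part in the parental ones. Unassigned γH2AX reads were 2.34 and 2.83 times the chromosome 9 median, against 1.04 and 1.00 in input and 0.983 and 1.00 in H2AX. The genome1 reads were 1.29 and 1.26 times the median in γH2AX and 1.23 and 1.21 in input. The genome2 reads were 1.15 and 1.18 in γH2AX and 0.963 and 0.988 in input, so a smaller rise was present in genome2. Of all reads in the bin 50.8% and 54.8% were unassigned in γH2AX, against 37.3% and 31.6% in input. Among the assigned reads genome1 had 58.2% and 57.1% in γH2AX and 61.6% and 60.8% in input, where the chromosome's median lay between 57.1% and 57.8%.

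**Figure D4:**
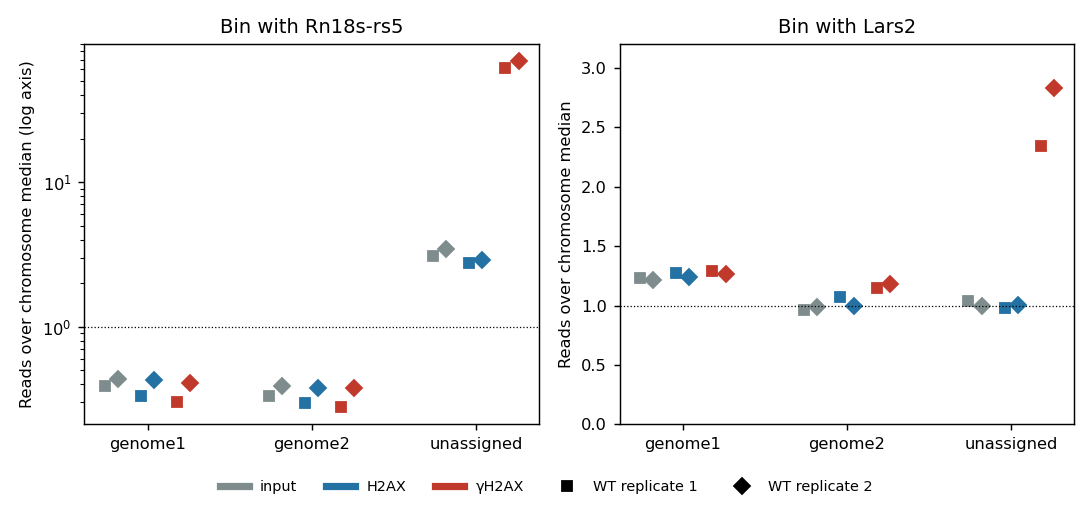
Reads of each parental class over the median of the same class on the same chromosome (vertical axis, log scale on the left only) in WT replicates 1 and 2 of the second table. In both bins the γH2AX points leave the input and H2AX points mainly in the unassigned class, at 61.7 and 68.4 for Rn18s-rs5 and 2.34 and 2.83 for Lars2, and the dotted line marks the median.

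In the clones the γH2AX excess of the Rn18s-rs5 bin was present and lower. KO clones held 2768 CPM (replicate 1) and 1886 CPM (replicate 2), KO clones with SIRT7-WT 1942 and 4989, and HY clones 2041 and 2436. Apart from replicate 2 of the SIRT7-WT clones, these values lay within 1886 to 2768 CPM and the groups overlapped. H2AX of the 6 clone libraries held 357 to 457 CPM. Against the median bin of chromosome 17, γH2AX of the clones was 4.55 to 13.5 times as high and H2AX 0.893 to 0.995 times.

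The Lars2 bin held 476 and 399.9 CPM in γH2AX of KO clones, 491 and 497 in KO clones with SIRT7-WT and 443 and 451 in HY clones. Its H2AX values of 453 to 479 CPM in the 6 clone libraries covered much of the same range. Over its neighbours (scaled to their length), γH2AX of the Lars2 bin was 1.06 to 1.30 times as high, and the highest value came from replicate 2 of the SIRT7-WT clones, the library that was also highest in the Rn18s-rs5 bin. That library also held the highest count in the Sirt7 bin (9640 CPM); the part of this in the member bins was not tested.

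KO clones and KO clones with SIRT7-WT are labelled as the same clones, c22 and c9, and the fit did not use that pairing. By replicate number, which does not name the clone, γH2AX of the Rn18s-rs5 bin went from 2768 to 1942 CPM and from 1886 to 4989. With SIRT7-WT added to KO clones, γH2AX differed by 0.63 in the Rn18s-rs5 bin (SE 0.322, adjusted p = 0.99) and by 0.21 in the Lars2 bin (SE 0.112, adjusted p = 0.99), and 0.0387% of bins passed. The Rn18s-rs5 value was -0.22 without replicate 2 of the SIRT7-WT clones and 1.18 (adjusted p = 0.0514) without replicate 1. HY clones differed from KO clones by -0.050 (SE 0.32, adjusted p = 0.968) and 0.034 (SE 0.112, adjusted p = 0.934), where 0.0387% passed as well. HY clones differed from KO clones with SIRT7-WT by -0.68 in the Rn18s-rs5 bin (SE 0.322, adjusted p = 0.576) and by -0.18 in the Lars2 bin (SE 0.112, adjusted p = 0.703), where 1.94% of bins passed. The Rn18s-rs5 value was -1.23 (adjusted p = 0.0212) without replicate 1 of the SIRT7-WT clones and 0.17 without replicate 2. None of these changes passed in the fit of all clone libraries, and in both comparisons that use the SIRT7-WT clones the sign in the Rn18s-rs5 bin turned with their replicate 2. The Lars2 value for SIRT7-WT against KO clones was 0.064 without replicate 2 of the KO clones and 0.32 without replicate 1.

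No change of H2AX between the clone groups passed in either bin. Adding SIRT7-WT changed it by -0.089 in the Rn18s-rs5 bin (SE 0.321, adjusted p = 1) and by 0.0049 in the Lars2 bin (SE 0.112, adjusted p = 1), where edgeR called 0 bins (0%), with 0 at an unadjusted p under 0.05 and 0 called by DESeq2. HY clones differed from KO clones in H2AX by 0.10 (SE 0.321, adjusted p = 0.913) and -0.016 (SE 0.112, adjusted p = 0.97), where 0.0387% of bins passed. The change of γH2AX relative to H2AX was 0.72 (SE 0.454, adjusted p = 1) and 0.21 (SE 0.158, adjusted p = 1) with SIRT7-WT, and -0.15 (SE 0.453, adjusted p = 1) and 0.050 (SE 0.158, adjusted p = 1) in HY clones. In these 2 contrasts edgeR called 0 bins (0%), with 1 and 5 at an unadjusted p under 0.05 and 0 called by DESeq2 in either.

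Between KO clones and the WT libraries of the second table, γH2AX of the Rn18s-rs5 bin fell by 2.15 on the log2 scale (SE 0.323, adjusted p = 0.00179), from 8852 and 10049 CPM in the 2 WT libraries of that table. The bin was selected on high γH2AX in these same data, and the p-value makes no allowance for that selection. The WT library of 10049 CPM is the NT-named one of the first table. The Xray-named WT library of the first table, which was not in this fit, held 5009 CPM, close to the highest clone library (4989). In that comparison 0.658% of bins passed, and over the 12 alternative settings the adjusted p ran from 2.44e-10 to 0.0326. The Lars2 bin differed by -0.41 (SE 0.106, adjusted p = 0.115), with 521 and 542 CPM in WT. H2AX of the Rn18s-rs5 bin differed by -0.15 (SE 0.309, adjusted p = 0.698), while H2AX of the Lars2 bin rose by 0.49 (SE 0.106, adjusted p = 0.00192), in a comparison where 52.9% passed.

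The satellite-like bins moved between these libraries too. The bin of chromosome 2 from 98000001 held 11631 to 19208 CPM in γH2AX of the 6 clone libraries against 55121 and 62291 in WT, and 11390 to 14833 against 59668 and 63007 in H2AX. Its log2 change between KO clones and WT was -1.997 in γH2AX (SE 0.363) and -2.04 in H2AX (SE 0.364). The change there was of similar size in both assays. In the Rn18s-rs5 bin it was -2.15 in γH2AX and -0.15 in H2AX, and the difference between the assays was not tested. The 4 neighbours of the Rn18s-rs5 bin fell by 0.59 to 0.93 in H2AX. KO libraries of the first table held 7299 and 16845 CPM in γH2AX of the Rn18s-rs5 bin, against 1886 and 2768 in KO clones. In the chromosome 2 bin they held 54421 and 59336, against 12766 and 19208. Libraries of the same genotype thus differed between the tables in both bins, and why was not tested. Only the clone groups are labelled with clones, and library preparation is not described apart. Genotype and other differences between clones and WT cells cannot be told apart.

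**Figure D5:**
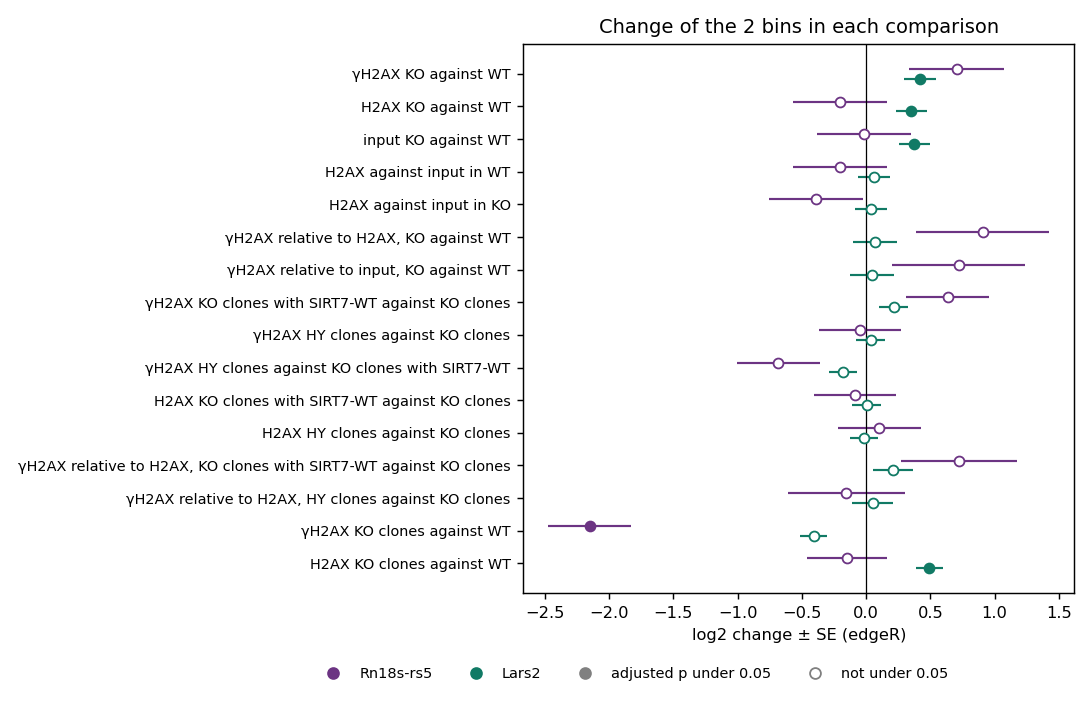
Log2 change with its SE (horizontal axis) of the 2 bins in each of the 16 comparisons, filled where the adjusted p was under 0.05. The Rn18s-rs5 bin is filled once, for γH2AX of KO clones against WT at -2.15, and the Lars2 bin is filled for KO against WT in all 3 assays and for H2AX of KO clones against WT.

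Bins whose CPM followed the members most closely were sought by Pearson's r of log2(CPM + 1) over the 12 libraries of a fit. The libraries share assay and table, so r mostly follows the step between assays, and it is a description. In the first table the bin most like Rn18s-rs5 was that of chromosome 11 from 109000001 (r = 0.985), followed by chromosome 19 from 61000001 (r = 0.976) and chromosome 2 from 182000001 (r = 0.971), both short bins at a chromosome's end. γH2AX of the chromosome 11 bin was 975 and 733 CPM for WT and 1343 and 833 for KO, the same order of libraries as in the Rn18s-rs5 bin. The bins most like Lars2 were chromosome 8 from 15000001 (r = 0.976), which holds Arhgef10 and Csmd1, chromosome 16 from 57000001 (r = 0.953), which holds Cmss1 and Filip1l, and chromosome 16 from 11000001 (r = 0.949), which holds Zc3h7a. Between the 2 members r was 0.859 over the WT and KO libraries and -0.080 over those of clones.

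In the clones the bins most like Rn18s-rs5 were chromosome 3 from 5000001 (r = 0.985), which holds Pex2, chromosome 6 from 103000001 (r = 0.947), which holds Chl1, and chromosome X from 16000001 (r = 0.946), which holds Maoa and Maob. The chromosome 3 bin held 509 CPM in γH2AX of the SIRT7-WT clones' replicate 2 and 360 to 423 in the other 5 γH2AX clone libraries. For Lars2 they were chromosome 5 from 146000001 (r = 0.744), chromosome 2 from 5000001 (r = 0.670) and the Sirt7 bin (r = 0.654). The Lars2 bin, whose γH2AX and H2AX overlapped in the clones, had no bin as close in pattern there as among the WT and KO libraries.

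Genes that work with the ribosomal arrays were looked up in their own bins. The list of 23 genes of RNA polymerase I and the nucleolus includes Polr1a, the large subunit of the polymerase, Ubtf, its upstream binding factor, Baz2a, which silences ribosomal DNA, and Sirt7. In γH2AX between KO and WT, 6 of their 23 bins were higher and 5 lower, with a median log2 change of -0.034, as for all bins (-0.034). These 11 compare with 60.1% of all bins that passed (777 higher, 776 lower of 2582). The 2 largest rises were 0.40 (Baz2a) and 0.25 (Taf1d), and the 2 largest falls were -1.02 (Sirt7) and -0.28 (Polr1a). In input 6 were higher and 3 lower, with Baz2a at 0.47, Ubtf at 0.30, Sirt7 at -0.91 and Polr1a at -0.22, close to their γH2AX values. In H2AX 6 were higher and 5 lower. Over all bins 57.5% passed in input (828 higher, 656 lower) and 63.3% in H2AX (791 higher, 843 lower). No bin of the list passed relative to H2AX or relative to input.

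The list of 16 mitochondrial aminoacyl-tRNA synthetase genes, the enzymes that act beside Lars2, had 1 bin higher and 7 lower in γH2AX of KO against WT, with a median of -0.076, against -0.034 for all bins. Over all bins 60.1% passed, about evenly in both directions. Yars2 was the 1 higher at 0.16, and Tars2 (-0.26) and Aars2 (-0.22) were the lowest. In H2AX 3 were higher and 9 lower (63.3% of all bins passed), and in input 3 higher and 5 lower (57.5%). Between KO clones and WT, H2AX was higher in 13 of 23 bins of the first list and 6 of 16 of the other, with none lower, where 52.9% of all bins passed (668 higher, 697 lower). In γH2AX no bin of either list passed, where 0.658% of all bins did.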

How the data were processed

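The authors deposited raw read counts per 1 Mb bin in 2 tables, in build mm10 per the submitters' processing notes, which name Bowtie2 2.2.9 beside deepTools 2.4.2, SAMtools 0.1.19 and Trimmomatic 0.36. How reads matching many places, duplicates and parental assignment were treated is not given in the sources used here. This bears on the Rn18s-rs5 bin, whose ribosomal sequence has many copies. Samples were found for columns through their names. The tables have 144 columns of values, of which 48 entered and 96 stayed out: 72 parental columns matched only a group, and 24 were clone input columns with no labelled sample.

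Bins on autosomes or X were tested if their mean count reached 100, which left 2582, and both members passed. The test was edgeR 4.0.16 (R 4.3.3) quasi-likelihood on deposited counts with TMM factors and 1 coefficient per group. It was two-sided, with Benjamini-Hochberg adjustment over all bins. The 12 libraries of the first table were 1 fit, the 12 clone libraries another, and clones with WT of the second table another again. The script was tested on simulated data. With 2 against 2 libraries the smallest exact permutation p is 0.333, and no such test was run. CPM used the library total. DESeq2 1.42.0, other scalings, no filter, a replicate block and leaving out each library were tried as alternatives. The members and gene lists were chosen with earlier results of these data known. Named bins are the members, up to 2 bins on each side, and 3 bins of satellite or mitochondrial copies. Also named are the 3 most alike bins by r per member and table, and the 2 largest changes in each direction of each list.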

Additional observations from a re-analysis of the deposited data

How the results depend on the processing

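Of 256 values of the members recomputed under settings that kept all libraries, 241 kept their direction and their side of the threshold, and of 160 with 1 library left out, 129 did. For those that did not, the cause was not tested. With only the compared groups in the fit, γH2AX of KO against WT in the Lars2 bin was 0.44 and no longer passed. In the same fit H2AX of the Rn18s-rs5 bin passed for KO against WT (-0.18) and against input in WT (-0.21) and KO (-0.37), and Lars2 passed for H2AX against input in WT (0.060) and KO (0.058). For H2AX of KO against WT and against input in WT and KO, 1718, 1965 and 2071 of 2582 bins passed there. DESeq2 called γH2AX of KO clones against WT in the Lars2 bin (-0.41), and the autosomal total without the members turned H2AX of SIRT7-WT clones against KO clones there to -0.0066. With each library left out in turn, KO against WT in γH2AX ran from -0.037 to 1.31 for Rn18s-rs5 and from 0.19 to 0.63 for Lars2. For Lars2 it ran from 0.34 to 0.38 in H2AX and from 0.36 to 0.39 in input. Relative to H2AX, Rn18s-rs5 ran from 0.17 to 1.51 and Lars2 from -0.16 to 0.25. Relative to input, Rn18s-rs5 ran from -0.019 to 1.32 and Lars2 from -0.19 to 0.26. In γH2AX of the clones, Rn18s-rs5 ran from -0.22 to 1.18 for SIRT7-WT against KO, from -0.31 to 0.22 for HY against KO and from -1.23 to 0.17 for HY against SIRT7-WT, and Lars2 from 0.064 to 0.32 for SIRT7-WT against KO and from -0.098 to 0.14 for HY against KO. In H2AX of the clones, SIRT7-WT against KO ran from -0.25 to 0.052 for Rn18s-rs5 and from -0.0035 to 0.013 for Lars2, and HY against KO from -0.071 to 0.037 for Lars2. Relative to H2AX in the clones, Rn18s-rs5 ran from -0.14 to 1.27 with SIRT7-WT and from -0.42 to 0.12 in HY, and Lars2 from 0.056 to 0.31 and from -0.085 to 0.15.

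Whether like-named libraries pair was checked by the correlation over 2582 bins of the differences between the 2 libraries of each group. In the first table it reached 0.959 for γH2AX, 0.68 for H2AX and 0.486 for input. Between KO clones and KO clones with SIRT7-WT it was 0.936 for H2AX and 0.854 for γH2AX. It was 0.0466 to 0.37 where HY clones were 1 of the 2 groups. The labels give c22 and c9 for both of the former groups, but the replicate numbers of the counts do not name the clone. No label ties the NT and Xray names. The pairing was thus not established by the labels, and fits without a block count the difference between the names as spread. With the replicate block Lars2 passed for γH2AX of KO clones against WT (-0.41), and no other call of a member changed. A replicate block within each assay, chosen after seeing the data, gave γH2AX of KO against WT in the Rn18s-rs5 bin as 0.67 (adjusted p = 0.000248) and relative to input as 0.68. H2AX there was -0.20 for KO against WT, -0.18 against input in WT and -0.37 against input in KO, and Lars2 was -0.41 for γH2AX of KO clones against WT, all past the test. Counts of called bins under this block were 2 relative to H2AX and 346 relative to input for KO against WT (4 and 1 without it). In γH2AX they were 0 for SIRT7-WT against KO clones, 436 for HY against KO clones, 446 for HY against SIRT7-WT clones and 312 for KO clones against WT (1, 1, 50 and 17 without it), and 482 for H2AX of HY against KO clones (1 without it). With the plain replicate block they were 2 relative to input, and in γH2AX 0, 243, 168 and 269 in that order, and 261 for H2AX of HY.

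For KO against WT, DESeq2 called 16 bins for γH2AX relative to H2AX and 6 for γH2AX relative to input. It called 133 for γH2AX of HY against KO clones, 116 for HY against SIRT7-WT clones, 50 for KO clones against WT and 157 for H2AX of HY. The compared groups alone gave 919 for γH2AX of KO against WT (1553 with all groups), 2071 for H2AX against input in KO (1280), 0 relative to H2AX, 0 relative to input, 0 for γH2AX of SIRT7-WT and of HY against KO clones, 129 for H2AX of HY and 37 for γH2AX of KO clones against WT. The robust spread gave 0 for SIRT7-WT, RLE scaling 3 for HY against SIRT7-WT clones, and the autosomal total 14 for H2AX of HY and 73 for γH2AX of KO clones against WT. With each library left out, counts ran from 818 to 1226 for H2AX against input in WT, 579 to 832 in KO, 0 to 5 relative to H2AX, 0 to 4 relative to input, 0 to 1 for SIRT7-WT, 0 to 66 for HY against KO, 1 to 84 for HY against SIRT7-WT, 0 to 64 for H2AX of HY, 0 to 1 and 0 to 3 relative to H2AX in SIRT7-WT and HY clones, 10 to 13 for γH2AX and 521 to 1356 for H2AX of KO clones against WT. Where a lone library was left in a group, it was assumed to vary like the others. Of 60 ratios to another reference than the chromosome's median bin, 39 moved by more than the spread of the 2 libraries. The precision is limited by the 2 libraries per group.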
